A study of Mus musculus with 2 samples.

Results

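CXC chemokine genes encode a family of small secreted proteins, and their receptors, that steer leukocytes through tissue. The 10 genes followed here were chosen by symbol: the ligand genes Cxcl1, Cxcl2, Cxcl3, Cxcl9, Cxcl10, Cxcl11, Cxcl16, Cxcl14 and Pf4, and the receptor gene Cxcr4. Each symbol matched 1 gene identifier, so the set was 10 of the 55536 genes measured. Ribosomal-RNA-depleted total RNA had been sequenced from the nucleoplasmic fraction, the soluble part of the nucleus, of primary bone-marrow-derived macrophages of C57BL/6J mice. All cells had received lipid A, the part of bacterial lipopolysaccharide that Toll-like receptor 4 recognises, at 100 ng/ml for 20 min. There was 1 group of 2 libraries, which differed in the RNA that went in, 1 µg for replicate 1 and 500 ng for replicate 2. No unstimulated library was analysed here, so no value below is a response to lipid A. Both libraries carry the same donor identifier, sex and age were not collected, and the labels do not say whether the replicates came from separate cultures or animals. RNA input and replicate number cannot be told apart.

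CXC ligands fall into classes. Those with an ELR motif (glutamate, leucine, arginine) before the first cysteines, such as CXCL1, CXCL2 and CXCL3, attract neutrophils through CXCR2. CXCL9, CXCL10 and CXCL11 are induced by interferons and attract activated T cells through CXCR3. In macrophages, Toll-like receptor 4 switches on the ELR genes quickly through NF-kB, and nuclear RNA holds transcripts that are still being spliced beside finished ones.

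In the first quantification, total gene counts were 18194818 in replicate 1 and 18667509 in replicate 2, and a gene at 0 may hold up to 3 counts, which is 0.165 and 0.161 CPM (counts scaled to library size). The macrophage label fitted its markers: 10 of 10, among them Csf1r, Lyz2 and Adgre1, were at 1 TPM (a level per length, scaled to the same total in each library) or more in both libraries, with summed levels of 3955 and 3633 TPM. Of neutrophil markers 1 of 9 (Mmp8) reached 1 TPM in both libraries, with sums of 5.77 and 7.29 TPM and Ly6g at 0 counts. Of stromal markers 1 of 7 (Kitl) did, with sums of 4.18 and 1.98 TPM and 0 counts for Lepr and Dcn. No B cell marker of 5 reached it (0.42 and 0.61 TPM), and 1 of 6 T and NK cell markers did (Cd4, 33.7 and 32.5 TPM), with Cd3e at 0 counts. Of dendritic cell markers 1 of 5 did (Zbtb46), with sums of 2.54 and 2.94 TPM. In the second quantification all 10 macrophage markers again reached 1 TPM (sums of 1515 and 2556 TPM), and Lepr (2.35 and 10.2 TPM), Cd8a (1.03 and 1.60 TPM) and Siglech (1.03 and 1.32 TPM) reached it too, with the stromal sum at 4.82 and 14.6 TPM. The level of Lepr therefore depends on the quantification.

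Of the 10 CXC genes, 6 reached 1 TPM in both libraries, while the other 4 were below 1 TPM in both; among nuclear-encoded protein-coding genes, 44.9% reached 1 TPM in both. From high to low mean, the 6 were Cxcl2, Cxcl1, Pf4, Cxcl16, Cxcl10 and Cxcr4, and the other 4 were Cxcl3, Cxcl9, Cxcl11 and Cxcl14. Cxcl2 stood apart from the next gene, and the lowest of the 6, Cxcr4, stood apart from Cxcl3. Between them the order was not firm: the ranges of Cxcl1 and Pf4, of Cxcl16 and Cxcl10, and of Cxcl10 and Cxcr4 overlapped. The 10 genes together took 0.116% of gene counts in replicate 1 and 0.0799% in replicate 2. Cxcl2 alone made up 63.5% and 60.2% of those counts.

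**Figure D1:**
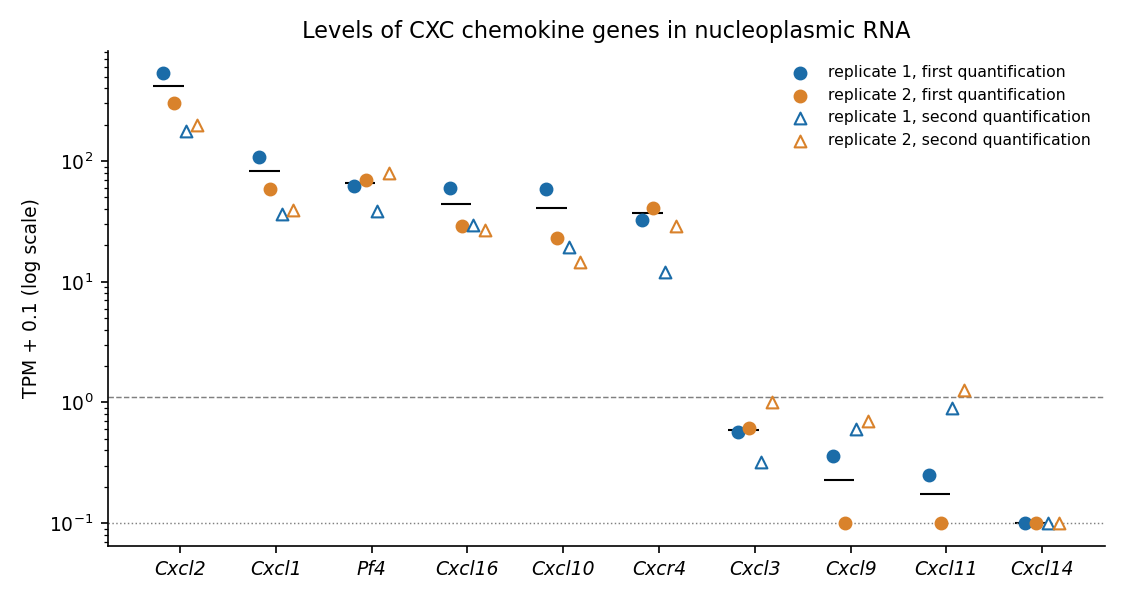
Level of each CXC gene as TPM + 0.1 on a log axis, with replicate 1 in blue and replicate 2 in orange, the first quantification as filled circles with their mean as a bar, and the second as open triangles. The dashed line marks 1 TPM and the dotted line 0; 6 genes lie above 1 TPM in both libraries and both quantifications, and Cxcl14 lies at 0 throughout.

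Cxcl2 (ENSMUSG00000058427.10, chromosome 5, 90903871 to 90905938, plus strand, mm10), which encodes the neutrophil attractant also called MIP-2, was the most abundant of the set. Its level was 534 TPM in replicate 1, against 305 TPM in replicate 2 (419 ± 162, SD, n = 2), with 13427 and 8970 counts. That mean ranked it number 40 among 22015 nuclear-encoded protein-coding genes. Cxcl1 (ENSMUSG00000029380.11, chromosome 5, 90891241 to 90893115, plus strand), which encodes the attractant also called KC, had 2645 and 1757 counts, or 107 and 58.4 TPM (82.7 ± 34.3, SD, n = 2), at rank 472. Both genes were higher in replicate 1, and the lowest Cxcl2 value lay above the highest Cxcl1 value. Between libraries their proportion hardly moved: Cxcl2 was 4.99 times Cxcl1 in replicate 1 and 5.22 times in replicate 2, and 4.87 and 5.06 times in the second quantification.

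Cxcl3 (ENSMUSG00000029379.10, chromosome 5, 90786103 to 90789600, plus strand), the third neutrophil attractant of the class, had 14 and 13 counts, or 0.47 and 0.51 TPM (0.49 ± 0.0283, SD, n = 2). Per length, Cxcl2 was 1136 times as high as Cxcl3 in replicate 1 and 598 times in replicate 2. The second quantification gave Cxcl3 31.8 and 119.7 counts, of which 27.6 and 114.9 were on its unspliced form, Cxcl3-202. Cxcl2 was then 812 and 220 times as high. The library in which Cxcl3 is higher therefore depends on the quantification, while its place far below Cxcl1 and Cxcl2 does not. Cxcl3 and Cxcl2 share sequence: 161 of the 2121 31-base words of Cxcl2 transcripts (7.59%) also occur in Cxcl3 transcripts on the same strand, so a small part of their reads could be split either way. Of the 3534 words of Cxcl3 transcripts, 193 (5.46%) occur in other genes on the same strand, 1460 genes in all with Cxcl2 among them. On the opposite strand 31 of the Cxcl3 words (0.877%) occur in 1468 other genes. Cxcl1 shares no such word with another gene.

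The proximal promoters of the ELR genes are shown because these genes share an NF-kB element, while Cxcl2 and Cxcl1 were far above 1 TPM and Cxcl3 was below it. Each line is the 120 bases before the RefSeq start of the gene (GRCm38.p6, plus strand of chromosome 5, 5′ to 3′), at chr5:90903779-90903898 for Cxcl2, chr5:90891125-90891244 for Cxcl1 and chr5:90785981-90786100 for Cxcl3. Capitals mark matches on either strand to the NF-kB motif, which is GGG, a pair of free positions (NN) and TTTCC.
Cxcl2: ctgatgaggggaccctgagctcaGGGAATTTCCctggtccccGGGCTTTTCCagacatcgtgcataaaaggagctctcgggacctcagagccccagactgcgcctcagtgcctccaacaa
Cxcl1: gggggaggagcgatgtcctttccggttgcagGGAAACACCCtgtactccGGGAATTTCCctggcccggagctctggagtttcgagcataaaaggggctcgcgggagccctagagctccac
Cxcl3: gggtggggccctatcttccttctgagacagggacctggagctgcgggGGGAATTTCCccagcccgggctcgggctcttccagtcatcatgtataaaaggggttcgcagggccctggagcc
All 3 promoters carry the identical element GGGAATTTCC, whose first base lies 97 bases upstream of the RefSeq start in Cxcl2, 71 in Cxcl1 and 73 in Cxcl3. These distances depend on the annotated start, most of all in Cxcl2. The GENCODE transcript Cxcl2-201 starts at 90903873 and Cxcl1-201 at 90891241, so the last printed bases of both genes lie in exon 1 of these transcripts. Cxcl3-201 starts at 90786103, after the printed bases. Cxcl2 has a further match, GGGCTTTTCC, at 78 bases upstream, and Cxcl1 has one at 89 bases upstream, read on the other strand. Cxcl3 has 1 match. Shares are given over the whole RefSeq windows, which run from 250 bases before to 50 after the start and so reach beyond the printed bases. The motif occurs on either strand in 1.63% of 32851 such windows. Of the 10 CXC genes 8 had such a window, and the other 5 of these held no match; no match says only that these letters are absent from the window. TATAAA on the gene strand was found 30 bases upstream in Cxcl3 and in Cxcr4 and 195 bases upstream in Cxcl9, against 8.32% of all windows. The printed Cxcl2 and Cxcl1 bases hold cataaaagg, which differs only in its first letter from tataaaagg in Cxcl3. That likeness was seen in the printed bases and was not counted over all windows. TGACGTCA, the CRE motif, was in no CXC window and in 1.79% of all windows. A match is a description of the letters and no evidence of binding in these cells.

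A second sequence feature of the ELR genes lies at the other end of the message. AU-rich elements built from ATTTA are known to mark short-lived cytokine messages for decay. The annotated 3′ untranslated region of Cxcl2-201 holds 11 ATTTA words and 7 overlapping TATTTAT words in 737 bases. As many ATTTA words occur in 0.0900% of 2223 such regions within 20% of its length, whose median is 1. Cxcl1-201 holds 7 ATTTA and 6 TATTTAT words in 595 bases (as many ATTTA in 0.380% of regions of like length), and Cxcl3-201 holds 5 and 2 in 648 bases (2.75%). Among the other genes the number of ATTTA words ran from 0 in Cxcl14 to 3 in Cxcl9, and none held TATTTAT, which 23.6% of 18924 regions do. The densest 30 bases of each ELR gene, from the GENCODE M21 transcripts on chromosome 5, are given with ATTTA words in capitals, where neighbouring words share their A.
Cxcl2 site: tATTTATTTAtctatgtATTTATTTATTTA
Cxcl1 site: gagggtcctATTTATTTAtgtATTTATTTA
Cxcl3 site: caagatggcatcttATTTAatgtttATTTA
Cxcl2 and Cxcl1, the most AU-rich of the set by this count, were also the highest ligand genes by mean TPM in the first quantification. In the second, Pf4 was above Cxcl1, with means of 58.7 and 38.0 TPM. Cxcl3, with the same kind of element, was below 1 TPM.

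Cxcl10 (ENSMUSG00000034855.13, chromosome 5, 92346638 to 92348889, minus strand) was the only interferon-inducible ligand gene of the 3 at 1 TPM or more; its product, IP-10, attracts T cells. It had 1281 and 757 counts, or 58.1 and 23.0 TPM (40.6 ± 24.8, SD, n = 2), at rank 1284, and it was the higher in replicate 1. Cxcl9 (ENSMUSG00000029417.9, chromosome 5, 92321347 to 92328079, minus strand), which encodes the ligand called MIG, had 8 counts in replicate 1 (exact Poisson 95% interval 3.45 to 15.8) and 0 in replicate 2. Such intervals, and all those below, cover the counting error of reads only and leave out the spread between cultures. Reads that carry no molecular identifier also do not stand for separate molecules. Cxcl11 (ENSMUSG00000060183.6, chromosome 5, 92359544 to 92365485, minus strand), which encodes the ligand I-TAC and is annotated as a polymorphic pseudogene in this reference strain, had 4 counts in replicate 1 and 0 in replicate 2.

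The second quantification gave Cxcl9 63.6 and 72.3 counts and Cxcl11 73.3 and 73.6 counts, which is less than 1 TPM for Cxcl9 in both libraries and 0.80 and 1.18 TPM for Cxcl11. Cxcl11 overlaps the processed pseudogene Gm2673 on the opposite strand, and 41.8% of its 31-base words occur in other genes on that strand, most of them in Gm2673. Gm2673 itself had 0 counts in both libraries in the first quantification and 69 and 145 in the second. Cxcl10 and Cxcl11 also lie within Art3 on the opposite strand, which had 42 and 23 counts, and 4.47% of the Cxcl10 words are shared with it. No source used here gives the strand setting of either quantification, so reads of overlapping genes on opposite strands may not have been separated. Some words are also shared on the same strand, which no strand setting separates. These are 88 of the Cxcl11 words (2.32%), found in 1497 other genes, and 17 of the Cxcl9 words (0.574%), found in 139.

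The Cxcl10 promoter is shown because it lacks the exact NF-kB motif of the ELR genes but holds a close variant. It is the 120 bases before the RefSeq start, chr5:92348890-92349009 on the minus strand (GRCm38.p6, 5′ to 3′), with the match to a looser NF-kB motif, GGGAN then TTNCC, in capitals; that motif was chosen after seeing the sequence.
Cxcl10: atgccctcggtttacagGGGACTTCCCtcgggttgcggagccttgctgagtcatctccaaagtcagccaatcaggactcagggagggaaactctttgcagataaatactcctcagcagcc
The element GGGACTTCCC begins 103 bases upstream, and the looser motif occurs in 1.20% of all windows and in 4 of the 8 CXC windows. The interferon-response motif (ISRE), which is GAAA on both sides of NN, was present 213 bases upstream in Cxcl10, as GAAAGTGAAA, and 172 bases upstream in Cxcl14, against 3.44% of all windows. The AP-1 motif TGANTCA lay 74 bases upstream in Cxcl10 and 32 bases downstream of the start in Cxcl9, against 7.81%. Cxcl9 and Cxcl14, which each hold 1 of these motifs, were both below 1 TPM.

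The other ligand genes differed widely. Pf4 (ENSMUSG00000029373.7, chromosome 5, 90772435 to 90773383, plus strand), which encodes platelet factor 4, also called CXCL4, was at 62.2 and 69.2 TPM (65.7 ± 4.95, SD, n = 2), at rank 667, from 325 and 414 counts. Megakaryocyte and platelet markers were present at low level beside it: 4 of 10 reached 1 TPM in both libraries (Itga2b, Gp1ba, Treml1 and Vwf), their sum was 64.2 and 37.9 TPM, Vwf alone was at 49.2 and 28.6 TPM, Ppbp was at 0.54 and 0.58 TPM, and Gp1bb was at 0 counts. Their part in the Pf4 level was not tested, and in bulk RNA fewer cells of a type and less RNA per cell cannot be told apart. Pf4 was the higher in replicate 2, whereas the summed level of these markers was the higher in replicate 1 in the first quantification and, at 34.2 and 39.3 TPM, in replicate 2 in the second. In the second quantification 2 of the 10 markers, Treml1 and Vwf, reached 1 TPM in both libraries, and Itga2b and Gp1ba did not.

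Cxcl16 (ENSMUSG00000018920.11, chromosome 11, 70453983 to 70459984, minus strand), which encodes a membrane-bound chemokine that also acts as a scavenger receptor, had 2476 and 1486 counts, or 59.7 and 29.1 TPM (44.4 ± 21.6, SD, n = 2), at rank 1136. Its neighbour on the opposite strand, Zmynd15, overlaps its 5′ end and had 376 and 161 counts, and 18.5% of the Cxcl16 words are shared with it. Cxcl14 (ENSMUSG00000021508.11, chromosome 13, 56288643 to 56296551, minus strand), a chemokine gene best known from epithelia, had 0 counts in both libraries and in both quantifications. It was not detectable at this depth.

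Cxcr4 (ENSMUSG00000045382.6, chromosome 1, 128588199 to 128592293, minus strand) encodes the receptor of CXCL12, which holds haematopoietic cells in the bone marrow. Its level was 32.6 TPM in replicate 1, against 40.9 TPM in replicate 2 (36.7 ± 5.88, SD, n = 2), at rank 1469, from 961 and 1513 counts. With Pf4 it was one of the pair of genes with more counts in replicate 2, and its place among the ligands turned over between libraries. Cxcl10 was 1.78 times Cxcr4 in replicate 1 and 0.563 times in replicate 2, and Cxcl16 was 1.83 and 0.711 times. The second quantification gave the same turnover, with 1.60 and 0.503 times for Cxcl10 and 2.44 and 0.920 times for Cxcl16.

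In the first quantification the rest of the CXC system was sparse on the ligand and receptor side and well represented downstream of the receptor. Of 6 further CXC ligand genes (Cxcl5, Cxcl12, Cxcl13, Cxcl15, Cxcl17 and Ppbp) 0 reached 1 TPM in both libraries, and 2, Cxcl13 and Cxcl15, had no counts in either. Cxcl12, the ligand of CXCR4, had 1 and 2 counts. The second quantification also put 0 of the 6 at 1 TPM in both libraries, but it gave Cxcl15 73.8 and 131.9 counts (0.62 and 1.52 TPM) and Cxcl5 39.5 and 118.4 counts (0.47 and 1.90 TPM), so their near absence depends on the quantification. Of 7 further receptor genes only Cxcr6, the receptor of CXCL16, reached 1 TPM in both, at 4.58 and 3.89 TPM. Cxcr2, the receptor of the ELR ligands, had 2 and 5 counts, or 0.05 and 0.08 TPM, against 0.83 and 1.43 TPM in the second quantification. Cxcr3, the receptor of CXCL9, CXCL10 and CXCL11, had 23 and 50. Of 24 genes for CXCR4 signalling and chemokine processing, 22 reached 1 TPM in both libraries. The highest were Rgs1, a brake on G-protein signalling, at 254 and 192 TPM, Sdc4, a heparan sulfate proteoglycan that can bind chemokines, at 334 and 96.3 TPM, and Dock2, a Rac activator needed for leukocyte migration, at 202 and 121 TPM. The lowest was Dpp4, a protease that trims CXC ligands, at 0.67 and 0.43 TPM.

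Neighbours within the chemokine clusters of chromosome 5 had very different levels. The first cluster runs over 146.6 kb from Cxcl5 to Cxcl2, with the coding genes in the order Cxcl5, Ppbp, Pf4, Cxcl3, Cxcl15, Cxcl1 and Cxcl2, all on the plus strand. Pf4, at 62.2 and 69.2 TPM, lies 2.37 kb from Ppbp, at 0.54 and 0.58 TPM, and 12.7 kb from Cxcl3, at 0.47 and 0.51 TPM. Cxcl1, at 107 and 58.4 TPM, and Cxcl2, at 534 and 305 TPM, are 10.8 kb apart at its far end, and 114.3 kb separates Cxcl3 from Cxcl2. The second cluster holds Cxcl9, Cxcl10 and Cxcl11 within 44.1 kb on the minus strand, and the middle gene is the one at 1 TPM or more.

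**Figure D2:**
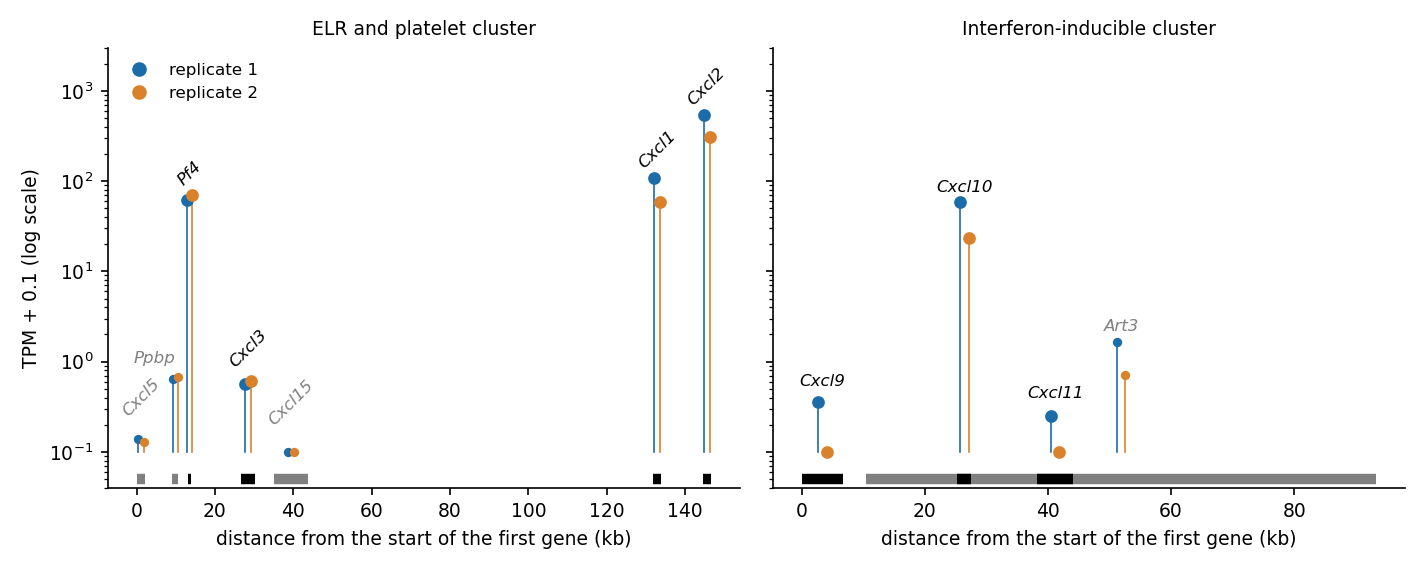
TPM + 0.1 on a log axis against distance in kb from the start of the first gene for the clusters of chromosome 5 that hold CXC genes, with replicate 1 in blue left of replicate 2 in orange; bars along the bottom are gene bodies, black for the 10 genes followed and grey for their neighbours. Cxcl10 stands above Cxcl9 and Cxcl11, and Cxcl1 and Cxcl2 stand at the far end of their cluster, with 114.3 kb between Cxcl3 and Cxcl2.

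Counts of the libraries were then compared gene by gene after TMM scaling (a scaling that centres the bulk of genes), as log2 of replicate 1 over replicate 2. This compares 2 libraries and not conditions, and a gene counted as apart when the ratio was over 2-fold with its exact binomial 95% interval clear of 0. A mean scaled count of 10 or more was required, which 7 of the 10 genes met; Cxcl9, Cxcl11 and Cxcl14 did not. None of the 7 was over 2-fold higher in replicate 1 or over 2-fold higher in replicate 2, against 3.67% and 4.36% of 15557 genes. Without the size limit, 4 of the 7 were higher in replicate 1 with an interval clear of 0, against 25.6% of all genes, and 2 were higher in replicate 2, against 24.5%. Of the 24 genes for CXCR4 signalling and chemokine processing, all of which were tested, 13 were higher in replicate 1 and 9 in replicate 2 by the same rule. An interval clears 0 more easily at a high count. A mean scaled count of 100 or more was reached by 6 of the 7 genes, against 9838 of the 15557, so these shares are not matched for depth. The median of the 7 was 0.52 and that of all genes tested was 0.00 (to 2 decimals).

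Cxcl10 had a log2 ratio of 0.70 (interval 0.57 to 0.83), Cxcl16 of 0.68 (0.58 to 0.77), Cxcl1 of 0.53 (0.44 to 0.62) and Cxcl2 of 0.52 (0.48 to 0.56). The intervals of Cxcl1 and Cxcl2, neighbours in the genome, lay over each other. Cxcr4 had a ratio of -0.71 (-0.83 to -0.60) and Pf4 of -0.41 (-0.62 to -0.20), and Cxcl3 one of 0.05 whose interval ran from -1.15 to 1.26. These intervals leave out the spread between cultures, for which 2 libraries give no separate estimate.

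The scale matters for these directions. On the TPM scale of the first quantification the median of all genes lay 0.36 (log2) above 0 in favour of replicate 1. On that scale Cxcl10 and Cxcl16 were 1.33 and 1.03, and Pf4 was -0.15 with an interval of -0.37 to 0.06. On the TPM scale of the second quantification Cxcl1 was at 36.6 and 39.4 TPM and Cxcl2 at 178 and 199 TPM, higher in replicate 2, although the scaled counts of that same quantification put them higher in replicate 1, by 0.58 and 0.60.

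**Figure D3:**
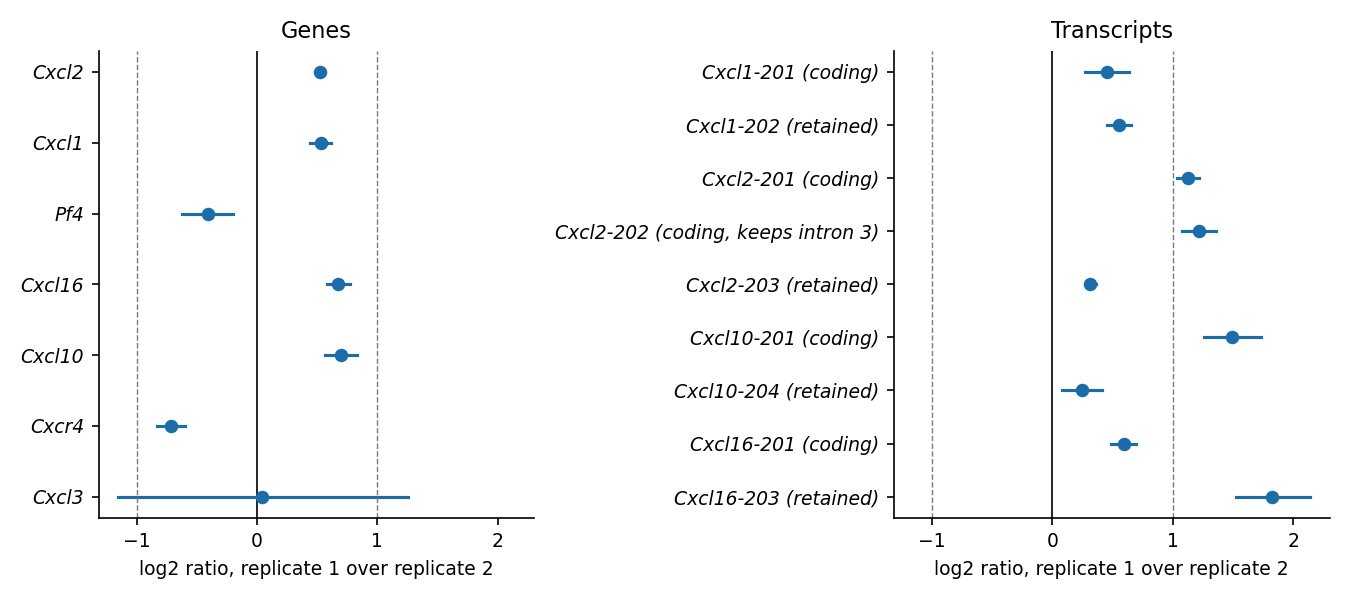
Log2 ratio of replicate 1 over replicate 2 from TMM-scaled counts, with exact binomial 95% intervals, for the 7 genes whose mean scaled count reached 10 (left) and for coding and retained-intron transcripts of 4 of them, with Cxcl2-202 a coding form that keeps intron 3 (right); dashed lines mark 2-fold. The genes stay within 2-fold, from -0.71 for Cxcr4 to 0.70 for Cxcl10, while Cxcl2-201, Cxcl2-202, Cxcl10-201 and Cxcl16-203 lie beyond it.

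Transcript forms were examined next, since nuclear RNA holds messages in the course of splicing. An annotated retained-intron transcript exists for 7 of the 10 genes, and 5 of these (Cxcl1, Cxcl2, Cxcl10, Cxcl16 and Pf4) had 100 or more counts in both libraries. The share of a gene's TPM on such transcripts was 57.3% in replicate 1 and 73.7% in replicate 2 for Cxcl2 (65.5% ± 11.6, SD, n = 2), and 60.6% and 59.1% for Cxcl1 (59.9% ± 1.03). Both genes had the larger part of their TPM on unspliced or partly spliced forms in both libraries. Cxcl10 had 39.2% and 56.4% (47.8% ± 12.2), Pf4 had 33.3% and 32.7% (33.0% ± 0.421), and Cxcl16 had 25.6% and 11.6% (18.6% ± 9.95). The median of the 5533 genes with such transcripts and as many counts was 32.2% in replicate 1 and 32.9% in replicate 2. By mean share, Cxcl2 stood at percentile 92.7 of these genes, Cxcl1 at 88.3, Cxcl10 at 75.7, Pf4 at 51.0 and Cxcl16 at 24.9. The share depends on which forms are annotated. Cxcl1, Cxcl2 and Cxcl10 have a retained form of 1 exon, while Pf4 has only one of 2 exons and 360 bases and Cxcl16 only one of 6 exons. This order is therefore no measure of splicing state. Cxcr4 has no such transcript, so no share can be given. Its 2-exon form Cxcr4-201 held 94.97% and 98.8% of its TPM.

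The retained introns of the ELR genes are short, and the first of each is shown because Cxcl2 and Cxcl3 are nearly the same there. The lines give intron 1 of the 4-exon transcripts Cxcl2-201 (chr5:90904024-90904115), Cxcl1-201 (chr5:90891381-90891469) and Cxcl3-201 (chr5:90786250-90786341), mm10, plus strand, 5′ to 3′, with the splice-site bases GT and AG in capitals.
Cxcl2 intron 1: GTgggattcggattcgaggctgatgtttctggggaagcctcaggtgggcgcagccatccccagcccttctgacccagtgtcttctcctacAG
Cxcl1 intron 1: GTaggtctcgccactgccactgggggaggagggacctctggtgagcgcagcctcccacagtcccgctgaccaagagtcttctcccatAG
Cxcl3 intron 1: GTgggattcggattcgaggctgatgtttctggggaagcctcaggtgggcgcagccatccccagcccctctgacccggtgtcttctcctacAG
Intron 1 of Cxcl2 and of Cxcl3 are both 92 bases long and differ at 2 positions, so a read inside it that covers neither position is the same in both genes. Intron 1 of Cxcl1 has 89 bases. Introns 2 and 3 have 117 and 748 bases in Cxcl2, 115 and 718 in Cxcl1 and 118 and 765 in Cxcl3. All 3 genes, and Cxcl10 with introns of 538, 194 and 419 bases, have an annotated form of 1 exon that keeps every intron: Cxcl2-203, Cxcl1-202, Cxcl3-202 and Cxcl10-204. All 12 introns begin with GT and end with AG.

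These unspliced forms carried most of the retained share. Cxcl2-203 was at 246 and 155 TPM, or 46.0% and 50.7% of the gene, and the spliced form Cxcl2-201 was at 183 and 65.3 TPM. A short form of 2 exons and 397 bases, Cxcl2-204, was at 60.3 and 70.3 TPM but rested on 219 and 327 counts, so that a share of TPM weights it heavily. Cxcl2-202, at 44.3 and 14.9 TPM, keeps intron 3 but is annotated as protein coding, so it stands outside the retained share. A wider measure, added after seeing the data, counted every form that keeps a whole intron or is annotated as retained-intron. It gives 65.6% and 78.6% of TPM for Cxcl2 and 40.4% and 58.4% for Cxcl10. In Cxcl10 this includes Cxcl10-203, a short retained-intron form of 2 exons and 344 bases that keeps no whole intron of Cxcl10-201. That form had 9.29% and 6.56% of TPM, from 14 and 5 counts. Cxcl1-202, of 1 exon, held 60.6% and 59.1% of its gene. Cxcl10-204 was at 17.4 and 11.5 TPM and the spliced Cxcl10-201 at 34.6 and 9.59 TPM. For Cxcl10 the order of these forms differed between libraries, with the spliced one the higher in replicate 1 and the unspliced one the higher in replicate 2.

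The libraries differed more in the fully spliced than in the fully unspliced forms of Cxcl2 and Cxcl10. From TMM-scaled counts, Cxcl2-201 had a log2 ratio of 1.13 (interval 1.04 to 1.22) and Cxcl2-203 of 0.32 (0.27 to 0.36). Cxcl2-202, which keeps intron 3 but is annotated as coding, went with the spliced form, at 1.22 (1.08 to 1.36), and lay between the others in the second quantification, at 0.75 (0.62 to 0.87). The short retained-intron form Cxcl2-204 went the other way, at -0.64 (-0.89 to -0.39). Cxcl10-201 had one of 1.49 (1.26 to 1.73) and Cxcl10-204 one of 0.24 (0.08 to 0.41). In Cxcl1 the forms moved together, with 0.45 (0.27 to 0.64) for Cxcl1-201 and 0.55 (0.45 to 0.65) for Cxcl1-202, and in Cxcl16 the retained-intron form Cxcl16-203 had the larger ratio, 1.82 (1.53 to 2.14), against 0.59 (0.49 to 0.69) for Cxcl16-201. The second quantification gave the same order in Cxcl2 (1.26 and 0.47), Cxcl10 (1.76 and 0.28) and Cxcl16 (1.47 for Cxcl16-203 and 0.47 for Cxcl16-201). The transcript ratios were added after the shares had been seen, and these intervals leave out the error of dividing reads between transcripts.

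As a share of TPM, retained-intron forms were lower in replicate 1 by over 5 percentage points in 2 of the 5 genes, Cxcl2 (-16.4 points) and Cxcl10 (-17.3 points), against 30.8% of 5533 genes. In Cxcl2 most of this lay on the short Cxcl2-204, with 11.3% and 23.0% of TPM, beside 46.0% and 50.7% for Cxcl2-203. By counts Cxcl2-204 had 1.63% and 3.65%, and Cxcl2-203 had 64.6% and 74.6%. The direction differed within the set: Cxcl16 was 14.1 points higher in replicate 1, and Cxcl1 and Pf4 differed by 1.46 and 0.60 points. The share of all genes higher in replicate 1 by over 5 points was not computed. As a share of counts, Cxcl2 had 66.3% (exact Clopper-Pearson 95% interval 65.4 to 67.1) and 78.2% (77.4 to 79.1), Cxcl10 had 53.2% (50.5 to 56.0) and 72.1% (68.8 to 75.3), and Cxcl16 had 17.1% (15.6 to 18.6) and 7.68% (6.37 to 9.14). These intervals leave out the error of dividing reads between transcripts, and how often they part between the libraries was not computed over all genes.

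**Figure D4:**
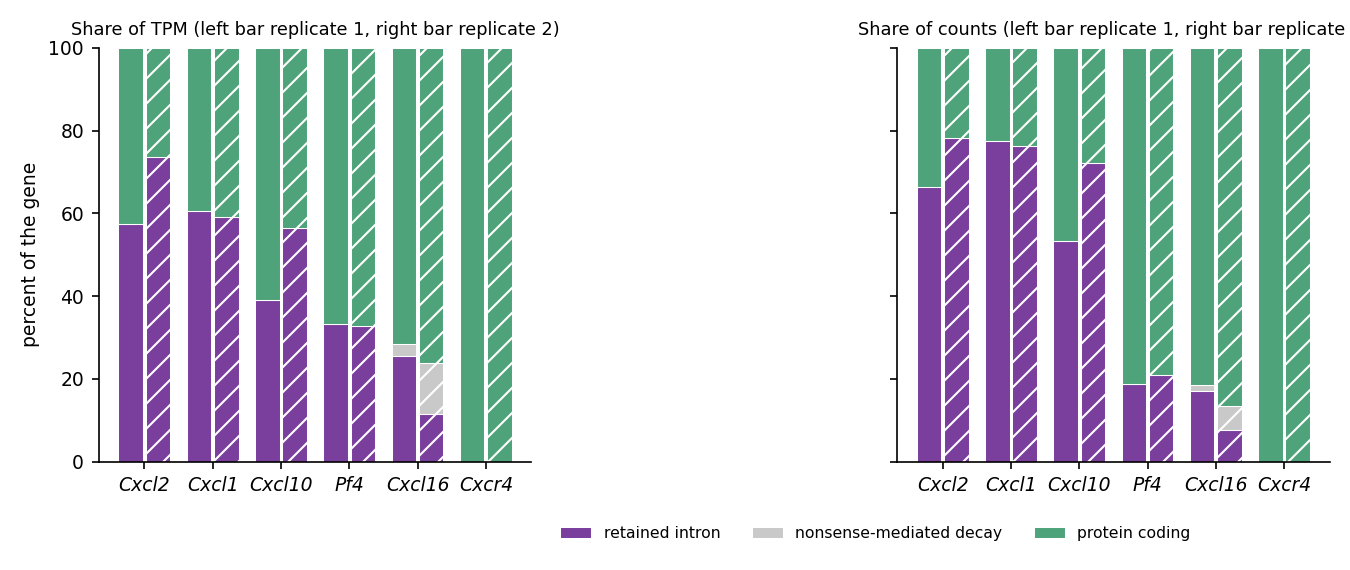
Percent of each gene on retained-intron (purple), nonsense-mediated-decay (grey) and protein-coding (green) transcripts, as a share of TPM (left) and of counts (right), with replicate 1 as the plain bar left of replicate 2 as the hatched bar. Cxcl2 and Cxcl1 lie above 57% retained in every bar, Cxcl10 has more in replicate 2 than in replicate 1, Cxcl16 has less, and Cxcr4 has none annotated.

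Levels of the 6 genes at 1 TPM or more were last compared between the deposited quantifications, as log2 of the first over the second, centred on the median of 11756 genes (0.97 in replicate 1 and 0.03 in replicate 2). None of the 6 was over 2-fold apart the same way in both libraries, against 7.35% of those genes. Cxcl2 was at 0.61 and 0.58, Cxcl10 at 0.62 and 0.63, Cxcl1 at 0.57 and 0.54 and Cxcr4 at 0.47 and 0.47. Cxcl16 lay near 0, at 0.06 and 0.10, and Pf4 was lower in the first quantification, at -0.28 and -0.22. The replicates gave nearly the same difference for each gene. The retained-intron share of Cxcl16 was the one most unlike between methods, at 25.6% and 11.6% in the first quantification and 46.9% and 30.1% in the second. Pf4 followed with 33.3% and 32.7% in the first, against 47.4% and 45.6% in the second, while Cxcl1 had 60.6% and 59.1% in the first and 58.4% and 59.0% in the second.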

How the data were processed

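Each library has a first and a second quantification, neither pooled with the other library. The first was deposited with expected counts, TPM, posterior-mean TPM, FPKM, interval bounds and the percent of a gene on each transcript, per the file headers, whose names are RSEM's. The second was deposited with estimated counts and TPM for transcripts, under headers of the kind kallisto gives. Notes deposited with the files name mm10 and GENCODE M21. Versions, aligner and strand setting: not given in the sources used here.

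The members and gene lists were chosen with earlier results of these data known. All 10 members are named; of other lists, genes at 1 TPM or more in both libraries, or the 3 highest and the lowest. Other names, such as those behind a small count, were chosen after their values were seen. Expected counts were rounded and scaled with edgeR 4.0.16 (TMM, R 4.3.3). Log2 ratios used a prior count of 0.5 and exact binomial intervals. With 1 group there was no test. This step was tested on simulated data. Promoters came from RefSeq (GRCm38.p6), and introns and untranslated regions from GENCODE M21. The RefSeq window of Cxcl11 and Cxcl16 was not used here. Ratios were recomputed from library totals, from size factors of DESeq2 1.42.0, from TPM, with other minimums and in the second quantification. Other steps ran in Python 3.11.15 with pandas 2.3.3, numpy 2.4.6, scipy 1.17.1 and matplotlib 3.10.9.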

Additional observations from a re-analysis of the deposited data

How the results depend on the processing

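The number of CXC genes at 1 TPM or more in both libraries was 6, and it was 6 or 7 under every alternative tried, with 6 and 6 when replicate 1 or replicate 2 was left out. The number over 2-fold apart between the libraries was 0; it was 2 (Cxcl10 and Cxcl16) with TPM ratios, 1 (Cxcl3) in the second quantification and 1 (Cxcl9) with no minimum on the count. Over all genes 1249 of 15557 were apart, against 1762 of 15557 with TPM ratios and 1620 of 55536 with no minimum on the count. The second quantification had 2898 of 24466 apart. At a mean scaled count of 100 or more, 340 of 9838 were. Of the 1249, 45.7% were higher in replicate 1, against 58.6% with library totals and 85.5% with TPM ratios. Of 35 ratios of single genes under alternatives, 32 kept their direction and their side of 0. The Cxcl3 ratio turned round, to -0.10 with TPM ratios and -1.64 in the second quantification, and the interval of Pf4 reached 0 with TPM ratios; the cause was not tested. The number over 2-fold apart between quantifications was 0 throughout, also with either replicate left out. In the first quantification few counts, at most 14 in a library, limit Cxcl3, Cxcl9, Cxcl11 and Cxcl14; the second gave the first 3 of these 31.8 to 119.7 counts. No paired analysis was possible because there was 1 group.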
